A study of Mus musculus with 16 samples.

Results

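The replication-dependent histone genes encode the core histones H2A, H2B, H3 and H4 and the linker histones H1 that package newly copied DNA. Members were all genes whose current mouse symbol begins with H2ac, H2bc, H3c or H4c followed by a number, or is one of H1f1 to H1f5, which had been named Hist1h, Hist2h, Hist3h or Hist4h before. The rule found 64 genes in the NCBI RefSeq annotation of mouse assembly GRCm38.p6, of which 5 were H1, 19 H2A, 16 H2B, 12 H3 and 12 H4 genes. Of these, 61 were among the 18232 genes listed in either expression table, 58 in the table of plasmacytoid dendritic cells (pDCs) and 61 in the table of conventional dendritic cells (cDCs). H2ac14, H2ac5-ps and H2bc1 were in neither table, and H2ac1, H2bc14 and H4c11 were listed for cDCs alone. Expression was given as TPM (a level per transcript length, scaled to the library's total), and a gene was tested where its mean was at least 1 TPM over the libraries of its fit, which left 20 members in pDCs and 47 in cDCs. The untested members were too low to follow, and 40 members in the pDC table and 26 in the cDC table were listed at 0 in at least 1 library.

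RNA had been taken from DC subsets sorted from spleens of C57BL/6 mice aged 6 to 8 weeks. WT mice carried Trim33 fl/fl alleles with no Cre, and cKO mice carried the same alleles together with Itgax-Cre, so that the floxed alleles were shared by both groups and Cre was expressed under the gene of CD11c. Sorted pDCs (CD11c+ SiglecH+) gave 3 WT and 3 cKO libraries, cDC1s gave 2 and 2, and cDC2s gave 3 and 3. Both cDC subsets were CD11c+ SiglecH- cells with MHC II, of which cDC1s were CD24+ and CD172a- and cDC2s CD172a+ and CD24-. Each library pooled cells of several mice, and by the paper more mice went into a cKO than into a WT library. The comparison asked what loss of TRIM33, a chromatin-bound transcriptional regulator, did to gene expression in each subset.

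Most mRNAs end in a poly(A) tail, but canonical histone mRNAs end just after a stem-loop that is bound by SLBP. They are made in S phase, driven by NPAT under cyclin E and CDK2, and are degraded when DNA synthesis stops, so their level in proliferating cells is known to follow the share of cells in S phase. Some of these genes also yield polyadenylated transcripts that run past the stem-loop, and H1f2, H2bc4 and H2bc21 are known examples. Their copies are nearly identical, and reads cannot always be assigned to 1 copy.

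The sequences that set these genes apart are shown for the members on which the results turn. The histone stem-loop, with its usual bases and any base at 1 pair in the stem, was found in an annotated GENCODE M21 transcript (GRCm38) of 30 of the 62 members with such a transcript. A member without a match is not shown to lack the stem-loop. Its annotated transcript may stop before it, and several were short, such as H2ac13 (393 bases) and H2bc15 (381 bases). A stem-loop with other bases would also be missed. All 24 matches outside H4 had the stem-loop bases shown for H2ac24 and all 6 matches in H4 those shown for H4c4. Capitals mark the stem-loop and lower case the bases beside it.
H2ac24: aaaaaaGGCTCTTTTCAGAGCCatc
H2ac23: aaaaaaGGCTCTTTTCAGAGCCatccac
H2ac18: taaaaaGGCTCTTTTCAGAGCCacccac
H1f2: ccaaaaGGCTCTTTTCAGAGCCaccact
H2bc8: cccaaaGGCTCTTTTCAGAGCCacccat
H4c4: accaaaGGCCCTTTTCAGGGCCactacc
The stem-loop bases were the same in H2ac24, H2ac18 and H1f2, members whose levels differed between the groups in different directions. The annotated transcript of H2ac24 ended 3 bases past the stem-loop and that of H2ac18 35 bases past it, whereas that of H1f2 ran on for 840 bases. In all, 13 members had an annotated transcript that ran more than 100 bases past it.

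Upstream sequence was taken from RefSeq (GRCm38.p6) for 57 of the 64 members, from 250 bases before to 50 bases after the gene start. Short motifs were searched by their letters on both strands. CCAAT was present in 50 of 58 member windows (86.2%), in all windows of H1, H2A, H2B and H3 and in 3 of 11 of H4, against 37.4% of the 32851 promoter windows of the table. The TATA box letters TATAAA were in 34 member windows (58.6%) against 13.6% of all. The octamer ATTTGCAT was in 13 member windows, 6 of H2A and 7 of H2B, against 1.74% of all, and the H1 box letters AAACACA were in 8 member windows (13.8%), among them 4 of 5 of H1, against 7.18% of all. The 250 bases before the start of H2ac24, the member called in pDCs, and of H1f2, the member called lower in both cDC subsets, are given with matches to these letters in capitals. The H2ac24 stretch lies on the minus strand at chr13:21833476-21833725 and that of H1f2 on the plus strand at chr13:23738557-23738806.
H2ac24: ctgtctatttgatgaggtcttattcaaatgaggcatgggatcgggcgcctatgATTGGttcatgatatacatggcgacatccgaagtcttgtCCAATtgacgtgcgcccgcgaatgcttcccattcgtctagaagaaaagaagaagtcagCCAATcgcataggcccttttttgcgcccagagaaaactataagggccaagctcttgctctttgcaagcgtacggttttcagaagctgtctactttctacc
H1f2: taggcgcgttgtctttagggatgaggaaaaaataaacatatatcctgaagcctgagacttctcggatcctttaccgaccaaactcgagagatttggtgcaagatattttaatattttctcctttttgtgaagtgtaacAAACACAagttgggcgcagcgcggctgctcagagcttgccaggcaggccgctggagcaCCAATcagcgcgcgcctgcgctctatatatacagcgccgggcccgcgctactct
Both hold CCAAT on at least 1 strand, and only H1f2 of this pair holds AAACACA. The windows of H2ac24 and H2ac23 shared an identical run of 200 bases, so this upstream sequence does not belong to 1 gene alone.

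The likeness of the copies limits what a value for 1 gene means. Among all runs of 50 bases, the length of a read, the share found in no transcript of another gene had a median of 97.7% in H1, 21.1% in H2A, 45.4% in H2B, 38.0% in H3 and 60.1% in H4. In H2ac24 it was 6.93%, and 93.1% of its runs were also in H2ac23. H2ac18 had no unique run, and every run of H2ac19 was also in H2ac18. H1f2 (91.5% unique), H2bc9 (81.2%) and H2bc4 (69.4%) were better separated, and H2bc15 (13.6%) was not. How reads shared by copies were divided is set by the estimate of RSEM, so values of near-identical copies are uncertain one by one, and sums over a class are given beside them.

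Depth was estimated from the files at 17600000 to 20100000 reads per library. At that depth, 3 reads on the H2ac24 transcript correspond to 0.634 to 0.846 TPM, which covers counting error only, so that values under about 1 TPM rest on a few reads. Trim33, the deleted gene, was at 20.6, 23.8 and 22.3 TPM in WT pDCs and at 12.6, 16.5 and 11.7 TPM in cKO pDCs. In cDC1s Trim33 was at 15.5 and 18.2 TPM in WT and 7.88 and 7.71 TPM in cKO libraries, and in cDC2s at 20.6, 18.2 and 17.2 TPM against 7.93, 7.13 and 8.07 TPM. The groups did not overlap in any subset, and mRNA of the gene was still detected in every cKO library. Marker lists separated the cDC subsets from each other and pDCs from cDCs by pDC markers: the summed level of 8 pDC markers was 17484 to 19233 TPM in pDCs and at most 283.04 TPM in cDCs, that of 7 cDC1 markers was 1117 to 2045 TPM in cDC1s against 153.44 to 214.7 TPM in cDC2s, and that of 7 cDC2 markers was 1053 to 1431 TPM in cDC2s against 34.1 to 38.9 TPM in cDC1s. The cDC1 and cDC2 lists do not set cDCs apart from pDCs, in whose table they summed to 322 to 471 TPM and 1680 to 1877 TPM, the latter mostly Cd4, Clec10a and Sirpa.

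Histone mRNA was low in pDCs and higher in cDCs, and most of it came from few genes. Summed over all members it was 216.25, 216.04 and 210.8 TPM in WT pDCs, against 247.15, 256.41 and 236.88 TPM with Cre. In cDC1s it was 585 and 521 TPM in WT and 817 and 739.65 TPM in cKO libraries. In cDC2s it was 721, 1436 and 1095 TPM in WT and 988, 1407 and 1158 TPM in cKO libraries. The cKO libraries were above the WT libraries in pDCs and in cDC1s and overlapped with them in cDC2s, with log2 ratios of the group means of 0.20, 0.49 and 0.13. Sums are described without a test, and the pDC and cDC tables were scaled separately. These levels are those in the libraries. How fully mRNA without a poly(A) tail was captured is not known, so the leading genes need not be the most abundant in the cells. In bulk libraries, fewer expressing cells and less RNA per cell cannot be told apart.

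H2ac24, which encodes a core H2A histone, made up 62.0% to 80.3% of H2A in cDCs, and with H2ac24 left out the groups overlapped in every subset. Group means of the remaining sum, WT before cKO, were 210.38 and 204.18 TPM in pDCs, 313 and 293 TPM in cDC1s, and 476 and 434 TPM in cDC2s (H2ac24 was singled out after its values were seen). In pDCs the leading H2A gene was H2ac18, at 55.8% to 87.8% of the class. H1f2 led H1 in both tables, with 89.7% to 93.3% of it in pDCs and 58.8% to 95.4% in cDCs. The leading genes of the other classes were H2bc21, H3c15 and H4c9 in pDCs and H2bc8, H3c4 and H4c9 in cDCs.

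**Figure D1:**
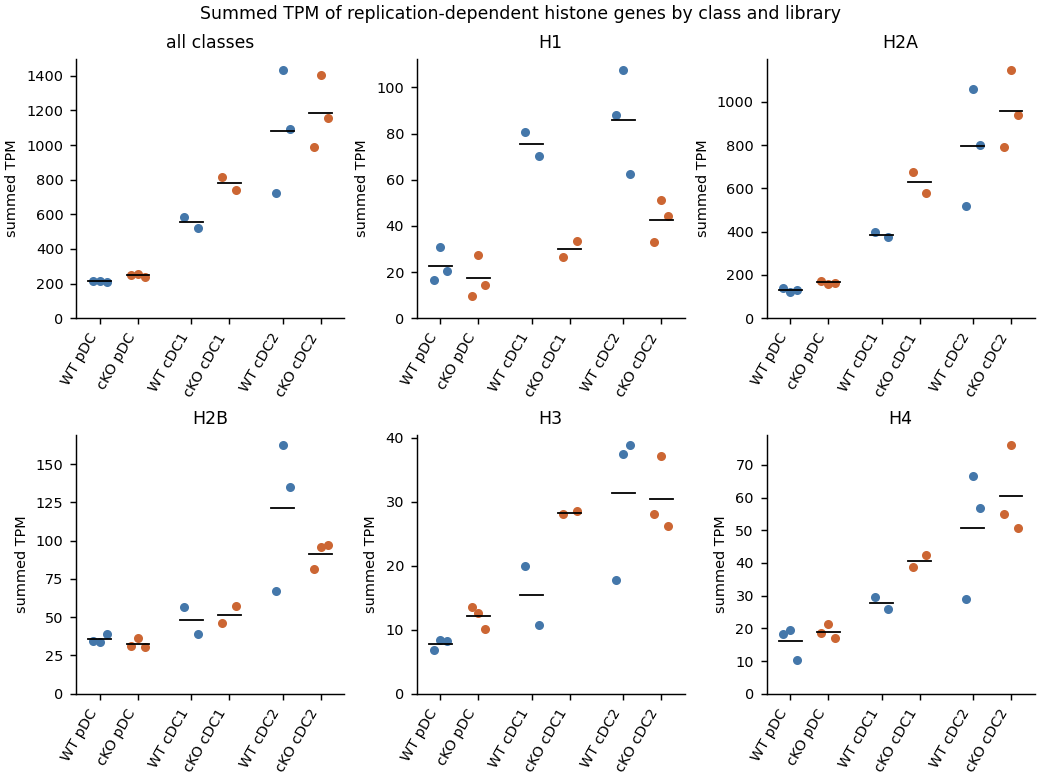
Summed TPM of the members of each histone class (vertical axis, linear, from 0) in every library of each group (horizontal axis). Points are libraries and lines are group means. H1 sums of cKO libraries lie below all WT libraries in cDC1s and cDC2s, and H2A sums of cKO libraries lie above WT in pDCs and cDC1s. The pDC and cDC tables were scaled separately.

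The classes did not move together. Summed H1 was 80.8 and 70.25 TPM in WT cDC1s and 26.5 and 33.5 TPM in cKO cDC1s, and it was 87.8, 107.4 and 62.7 TPM in WT cDC2s and 33.02, 51.1 and 44.1 TPM in cKO cDC2s. These H1 groups did not overlap, and the log2 ratios were -1.33 and -1.01. H1f2 carried this fall, and the other H1 genes, all low, did not share it. In cDC1s H1f3 was at 1.86 and 1.08 TPM in WT and 2.54 and 3.03 TPM in cKO libraries. H1f4 was at 1.60 and 1.74 TPM against 1.96 and 4.44 TPM, and H1f5 at 0.13 and 0.40 TPM against 1.76 and 1.56 TPM. H1f1 overlapped in cDC1s, and all of these overlapped in cDC2s. In pDCs summed H1 was lower, 16.5 to 30.7 TPM in WT and 9.78 to 27.5 TPM in cKO libraries, and the groups overlapped. Taken by replicate number, however, it was lower in the cKO library of each of the 3 pDC pairs, at 16.5 against 9.78, 30.7 against 27.5 and 20.7 against 14.6 TPM. Summed H2A went the other way, from 123 to 139.91 TPM in WT to 158 to 174 TPM in cKO pDCs and from 375.04 to 398 TPM to 578 to 677 TPM in cDC1s, without overlap. Without H2ac24 and H2ac23, summed H2A in cDC1s was instead lower in cKO (mean 75.0 TPM) than in WT libraries (102 TPM), again without overlap. H3 was at 6.79 to 8.40 TPM in WT and 10.1 to 13.6 TPM in cKO pDCs, and at 19.9 and 10.8 TPM in WT and 27.99 and 28.5 TPM in cKO cDC1s. H4 was at 29.7 and 26.0 TPM in WT and 38.8 and 42.4 TPM in cKO cDC1s, and its groups overlapped in pDCs and cDC2s. H2B overlapped between the genotypes in all 3 subsets. The direction of each class sum whose groups did not overlap was the same in FPKM and after median-of-ratios scaling.

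All listed members sit in clusters on chromosome 13 or, for 10 of them, chromosome 3. The chromosome 13 members summed to 59.2 to 81.7 TPM in WT and 85.6 to 139 TPM in cKO pDCs, and to 471 and 436 TPM in WT and 765 and 681 TPM in cKO cDC1s. The 10 chromosome 3 members, led by H2ac18, summed to 114 and 85.6 TPM in WT and 52.1 and 59.0 TPM in cKO cDC1s. In pDCs and cDC2s the chromosome 3 groups overlapped. The chromosome 13 sums were carried by H2ac24. Without it they were 54.4, 76.7 and 61.3 TPM in WT and 60.96, 93.2 and 59.5 TPM in cKO pDCs, which overlap, and 223 and 203 TPM in WT and 235 and 239.68 TPM in cKO cDC1s. H1f2 and H2bc4, on the same chromosome, were lower in both cKO libraries of cDC1s, so this cluster did not move as a whole. Chromosome 13 sums overlapped in cDC2s.

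In pDCs, 1 of 20 tested members was called higher in cKO libraries and none lower, where a call needed an adjusted p up to 0.01 (limma, Benjamini-Hochberg over all genes tested) and a log2 fold change, on the log2(TPM + 1) scale, of 0.5 or more in size. Over all 11299 genes tested in pDCs, 0.814% were called higher and 0.239% lower. This fit did not pair libraries by replicate number. With the replicate number as a block, 260 genes were called higher and 75 lower, in place of 92 and 27. The called member was H2ac24, at 4.81, 4.98 and 2.17 TPM in WT and 55.6, 46.2 and 26.1 TPM in cKO libraries. The WT mean was 3.99 ± 1.58 TPM and the cKO mean 42.6 ± 15.0 TPM (SD, n = 3 each). All cKO libraries were far above all WT libraries, and the log2 fold change was 3.12 (SE 0.32, limma adjusted p 0.00307). With the near-identical H2ac23 added, the sum was 4.81, 6.15 and 2.17 TPM against 63.6, 49.7 and 26.1 TPM. The fold of H2ac24 held at 2.82 to 3.43 without each library, but its adjusted p was 0.0119 without WT replicate 3, 0.0120 without cKO replicate 1 and 0.0109 without cKO replicate 2. It was 0.0171 with no filter on low genes and 0.0104 with eBayes without trend.

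The other leading members of pDCs did not pass. H2ac18, the most abundant member there, was at 119.56, 106.25 and 116.44 TPM in WT and 97.6, 88.4 and 128 TPM in cKO libraries (log2 fold change -0.14, 95% interval -0.44 to 0.16). H1f2, a linker histone that binds DNA between nucleosomes, was at 14.9, 27.8 and 18.6 TPM against 9.12, 25.4 and 13.1 TPM, lower in cKO in each of the 3 pairs though the groups overlapped (log2 fold change -0.42, limma adjusted p 0.545, and 0.0439 with the replicate block). H2bc21, an H2B gene known to yield polyadenylated mRNA, was at 19.4, 14.5 and 16.1 TPM against 13.8, 10.2 and 12.7 TPM, below WT in every cKO library but with a limma adjusted p of 0.154. H4c9 was at 9.27, 10.5 and 2.32 TPM against 8.96, 11.3 and 5.15 TPM, and H3c15 at 4.40, 3.99 and 3.21 TPM against 8.37, 0 and 4.97 TPM, so both overlapped. Of the 20 tested members, 12 had fold changes above 0, as did 38.5% of all genes, and 5 had an unadjusted p under 0.05, as did 20.8% of all genes. In 2 members every cKO library was above every WT library, as in 10.8% of all genes, and in 1 every cKO library was below, as in 16.7%.

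**Figure D2:**
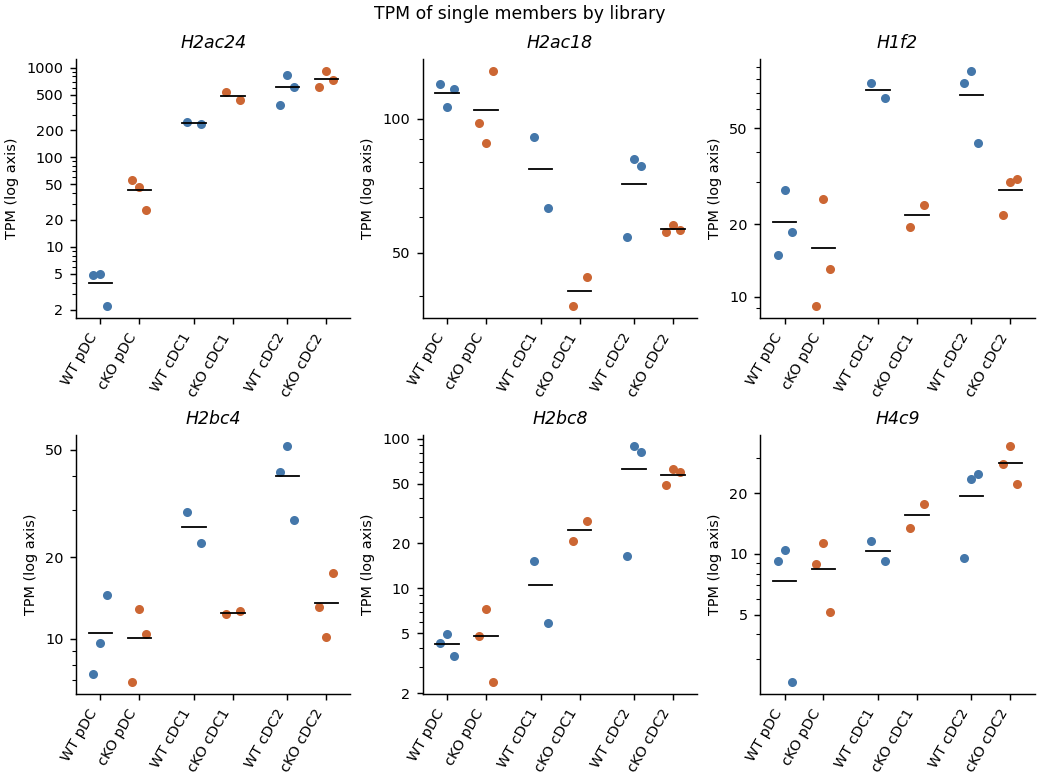
TPM (vertical axis, log scale) of H2ac24, H2ac18, H1f2, H2bc4, H2bc8 and H4c9 in every library of each group (horizontal axis). Points are libraries and lines are group means. H2ac24 lies higher in cKO than in WT libraries of pDCs and cDC1s, and H1f2 and H2bc4 lie lower in cKO libraries of both cDC subsets. The pDC and cDC tables were scaled separately.

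In cDC1s, most members tended upward, but few were called in either direction. Of 47 tested members 1 was called higher and 3 lower, against 15.8% of 11411 genes higher and 6.56% lower. The lower calls were thus near the share of all genes, and the higher call was under it. Fold changes were above 0 in 35 of 47 members and in 64.7% of all genes, and the median was 0.59 in members and 0.17 over all genes. After median-of-ratios scaling, which moved the median of all genes to 0.02, the median of members was 0.47, with 34 of 47 above 0. That scaling left 1067 genes called higher and 1070 lower, in place of 1806 and 749, and left the member calls at 1 and 3. A p under 0.05 without adjustment was found in 18 of 47 members and in 48.6% of all genes. In 23 members every cKO library was above every WT library and in 9 every one was below, as in 52.1% and 24.1% of all genes, so these counts were near the background.

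H1f2 was at 77.1 and 66.5 TPM in WT and 19.5 and 24.1 TPM in cKO cDC1s. Its level fell by 1.68 on the log2 scale (SE 0.29, limma adjusted p 0.00158), the largest fall among the called members. Without WT cDC1 replicate 1 its adjusted p was 0.0147, and without cKO cDC1 replicate 1 it was 0.02004. H2ac18 was at 90.9 and 62.95 TPM in WT and 37.8 and 44.0 TPM in cKO cDC1s (log2 fold change -0.87, SE 0.21, limma adjusted p 0.00828). Together with H2ac19, which shares all its runs, it was at 93.3 and 70.3 TPM against 37.8 and 46.5 TPM. The H2ac18 call was kept in 9 of 18 alternatives. Its adjusted p was 0.0707 without WT cDC1 replicate 1, 0.0697 without cKO cDC1 replicate 1, 0.0265 without cKO cDC1 replicate 2 and 0.0131 to 0.0150 without cKO cDC2 replicate 1, 2 or 3, and it was 0.0197 with no filter on low genes, 0.0109 with eBayes without trend and 0.0156 with the replicate block.

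H2bc9, an H2B gene with an annotated transcript 1214 bases past its stem-loop, was low throughout, at 1.87 and 1.54 TPM in WT and 0.39 and 0.28 TPM in cKO cDC1s (log2 fold change -1.02, SE 0.24, limma adjusted p 0.00748). Its adjusted p was 0.0385 and 0.0485 without cKO cDC1 replicate 1 and 2, and 0.0111 to 0.0114 without cKO cDC2 replicate 1, 2 or 3. It was also above the threshold with no filter (0.0101), after quantile normalization (0.0197) and with the replicate block (0.0143, and 0.0147 with the crossed block), and the fold was -2.06 with a pseudocount of 0.1, so the call was kept in 5 of 14 alternatives. H2bc15, an H2B gene, was the only member called higher, listed at 0 in both WT libraries and at 1.59 and 2.90 TPM in cKO cDC1s (limma adjusted p 0.00203). These levels are near the limit of detection and no fold is given. Without the cKO cDC1 libraries the mean of H2bc15 would be under the filter of 1 TPM. Without the WT cDC1 libraries the same holds for H2bc9. The entry of both genes to the test thus depended on the values compared. The adjusted p of H2bc15 was 0.0145 and 0.0113 without WT cDC1 replicate 1 and 2.

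Members with higher levels in cKO cDC1s were mostly not called. H2ac24 was at 248 and 232 TPM in WT and 529 and 441 TPM in cKO cDC1s, without overlap (log2 fold change 1.01, SE 0.31, limma adjusted p 0.0252). Together H2ac24 and H2ac23 were at 283 and 286 TPM against 607 and 498 TPM. H2bc8, the leading H2B gene, was at 15.3 and 5.85 TPM in WT and 20.8 and 28.1 TPM in cKO cDC1s, H3c4 at 3.8 and 0.74 TPM against 4.66 and 8.47 TPM, and H4c9 at 11.5 and 9.18 TPM against 13.5 and 17.7 TPM. The cKO libraries were above the WT libraries for each of these, with adjusted p of 0.166, 0.0619 and 0.281 from limma. H2bc4 went the other way, at 29.4 and 22.5 TPM in WT and 12.3 and 12.7 TPM in cKO cDC1s (log2 fold change -0.99, limma adjusted p 0.0202).

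In cDC2s, no member was called higher and 2 were called lower, against 3.59% of genes called higher and 3.56% lower. The median fold change of members was 0.01 and 24 of 47 were above 0, as were 46.5% of all genes, with 53.5% below 0. Of all genes tested, 410 were called higher and 406 lower, and after median-of-ratios scaling 580 and 379. An unadjusted p under 0.05 was found in 5 of 47 members, against 34.1% of all genes. In 3 members every cKO library was above every WT library and in 2 every one was below, against 16.3% and 19.2% of all genes.

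H2bc4, a core H2B gene, was at 41.3, 51.3 and 27.4 TPM in WT and 13.1, 10.1 and 17.4 TPM in cKO cDC2s. All cKO libraries were below all WT libraries (log2 fold change -1.48, SE 0.23, limma adjusted p 0.00253), and the adjusted p was 0.0104 without cKO cDC2 replicate 1 and 0.0156 with the replicate block. H1f2 was at 76.6, 86.4 and 43.3 TPM in WT and 21.8, 30 and 30.9 TPM in cKO cDC2s, again without overlap (log2 fold change -1.24, SE 0.23, limma adjusted p 0.00604). Its adjusted p was 0.0115 to 0.0231 without cKO cDC1 replicate 1 or 2, WT cDC2 replicate 1 or 2, or any 1 of the 3 cKO cDC2 replicates, 0.0104 in FPKM, 0.0106 after median-of-ratios scaling, 0.0172 with no filter and 0.0180 with the replicate block, so the call was at the edge of the threshold while the direction was the same in each of these fits.

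H2ac24 in cDC2s was at 380.4, 834.5 and 607 TPM in WT and 605, 921 and 726 TPM in cKO libraries, with overlap (log2 fold change 0.36, 95% interval -0.20 to 0.91). H2ac18 was at 54.1, 81.4 and 78.3 TPM in WT and 55.6, 57.8 and 56.1 TPM in cKO cDC2s, and H2bc8 at 16.4, 88.6 and 81.8 TPM against 49.2, 62.5 and 60 TPM. Neither passed the test (log2 fold changes -0.31 and 0.20). WT cDC2 replicate 2 had the highest sum of all members (1436 TPM) and also the highest sum of 9 listed erythroid markers, 10744 TPM against 1274 to 2302 TPM in the other cDC2 libraries. The part of this in the histone sums was not tested. Without that library the log2 ratio of the summed members in cDC2s was 0.38 in place of 0.13, H2ac11 was called higher, and H2bc4 was still called lower.

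**Figure D3:**
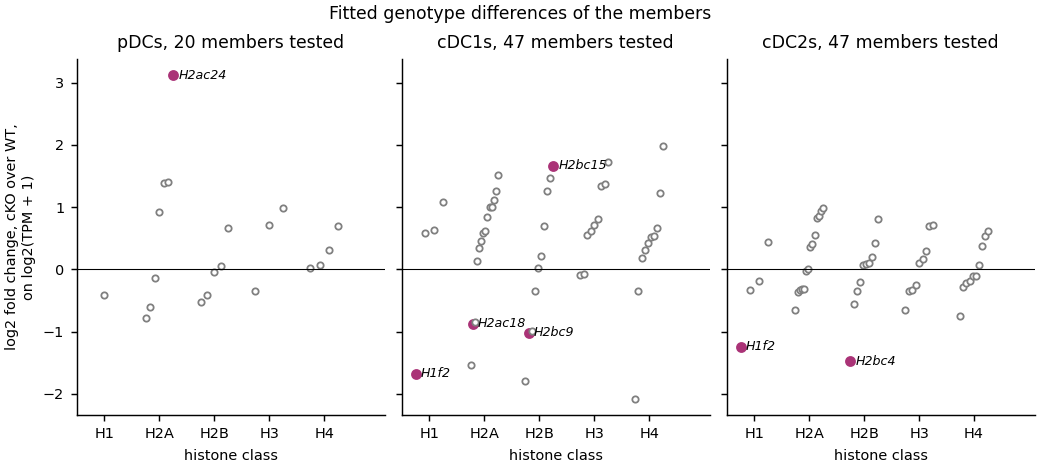
Fitted log2 fold change of cKO over WT on the log2(TPM + 1) scale (vertical axis) of each tested member, by histone class (horizontal axis), in pDCs, cDC1s and cDC2s. Filled points are called members and open points are not called. H1f2 is called lower in both cDC subsets and H2ac24 is called higher in pDCs.

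Whether the genotype effect differed between the cDC subsets was tested by an interaction term. No member was called in either direction by limma, against 1.21% of all genes with a larger effect in cDC1s and 1.35% with a smaller one (138 and 154 genes, and 100 and 281 after median-of-ratios scaling). An unadjusted p under 0.05 was found in 6 of 47 members, against 30.7% of all genes. Differences were above 0 in 35 members and below 0 in 12, against 72.9% and 27.1% of all genes. H2bc15, at 0 in WT cDC1s and at 0.66, 0.98 and 1.61 TPM in WT and 0.97, 0.77 and 1.93 TPM in cKO cDC2s, had the lowest adjusted p of those called within a subset (limma, 0.0310). For H1f2 the effect in cDC1s minus that in cDC2s was -0.43 (95% interval -1.26 to 0.39) and for H2bc4 it was 0.49 (-0.33 to 1.31), so a call in 1 subset is not shown to be a difference between the subsets.

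Among WT libraries, histone mRNA was lower in cDC1s than in cDC2s. Of 47 tested members 5 were called lower in WT cDC1s and none higher, against 20.8% of all genes lower and 10.9% higher (2371 and 1241 genes, and 1718 and 1819 after median-of-ratios scaling). Fold changes were below 0 in 38 of 47 members and in 63.6% of all genes, and above 0 in 9 and in 36.4%. An unadjusted p under 0.05 was found in 18 members and in 55.2% of all genes. The median was -0.73 in members and -0.17 over all genes, which became -0.55 and 0.01 after that scaling. H1f3, a linker histone, was at 1.86 and 1.08 TPM in WT cDC1s and 5.57, 9.43 and 7.37 TPM in WT cDC2s (log2 difference -1.77, SE 0.26, limma adjusted p 0.000321). H1f4, another linker histone, was at 1.60 and 1.74 TPM against 4.65, 8.43 and 9.81 TPM (-1.64, SE 0.34, adjusted p 0.00270). H2ac24 was lower by its values above (-1.26, SE 0.28, adjusted p 0.00388), and H2bc21 was at 1.80 and 1.88 TPM against 2.93, 5.29 and 4.04 TPM (-0.81, SE 0.19, adjusted p 0.00573). H3c11 was listed at 0 in both WT cDC1 libraries and at 2.27, 6.17 and 6.37 TPM in WT cDC2s (limma adjusted p 0.000608). The groups did not overlap in any of these 5. H1f2 and H2ac18 did not pass this test, with log2 differences of 0.12 (95% interval -0.47 to 0.70) and 0.11 (-0.32 to 0.53). Without WT cDC1 replicate 1 or 2, the calls of H1f4 (adjusted p 0.0205 and 0.0160), H2ac24 (0.0209 and 0.0277, and 0.0116 with no filter) and H2bc21 (0.0357 and 0.0285) were lost. That of H2bc21 was also lost in other fits, with adjusted p up to 0.0599. Leaving out WT cDC2 replicate 1 gave 12 members called lower.

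Members were also split by their annotated transcripts, a feature the choice of genes did not use. In cDC1s, of 12 tested members whose transcript ran more than 100 bases past the stem-loop 9 had fold changes above 0 and 2 were called lower, and of 13 whose transcript ended within 100 bases of it 10 were above 0 and 1 was called lower. Of 22 members with no match to the pattern 16 were above 0 and 1 was called higher. The unmatched group held H2bc4 and H2bc21 (1156 and 2620 bases), named above as examples with polyadenylated transcripts. This split therefore does not separate polyadenylated from stem-loop mRNA. In pDCs the same split gave 3 of 7, 7 of 8 and 2 of 5 members above 0, and in cDC2s 3 of 12, 8 of 13 and 13 of 22. Over all genes 38.5% were above 0 in pDCs, 64.7% in cDC1s and 46.5% in cDC2s. In cDC1s 15.8% of all genes were called higher and 6.56% lower. The group medians were -0.34, 0.71 and -0.04 in pDCs, 0.55, 0.61 and 0.55 in cDC1s, and -0.15, 0.36 and 0.08 in cDC2s. Over all genes the medians were -0.05, 0.17 and -0.03 in pDCs, cDC1s and cDC2s. Members with at least 50% unique runs summed to 131 and 162 TPM in WT and 121 and 135 TPM in cKO cDC1s (ranges that overlap), while members with fewer unique runs summed to 390.48 and 423 TPM in WT and 604 and 696 TPM in cKO cDC1s. The higher histone total of cKO cDC1s thus lay in copies whose reads are hardest to assign.

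Genes that act with histones in S phase were examined beside the members. Of 40 genes of DNA replication and S phase, 11 of 39 tested were called higher in cKO pDCs, 39 of 40 in cKO cDC1s and 26 of 40 in cKO cDC2s, and none lower (35 of 40 in cDC1s after median-of-ratios scaling). Over all genes tested, 0.814% were called higher in pDCs, 15.8% in cDC1s and 3.59% in cDC2s. Rrm2, a subunit of ribonucleotide reductase, was at 1.55, 1.76 and 1.28 TPM in WT and 28.2, 19.2 and 12.5 TPM in cKO pDCs, and Pclaf, a PCNA-binding protein, at 2.12, 2.64 and 1.00 TPM against 41.6, 32.97 and 17.5 TPM. Other large rises in pDCs were those of Ccna2 (log2 fold change 2.69) and Uhrf1 (2.36). Prim1, a primase subunit, was at 20.9 and 23.8 TPM in WT and 76.4 and 85.3 TPM in cKO cDC1s, and rose by 1.81 there and by 1.27 in cDC2s on the log2 scale. Next were Lig1, Mcm3 and Pole in cDC1s (1.64, 1.63 and 1.63) and Mcm5, Gins2 and Mcm10 in cDC2s (1.205, 1.09 and 1.09). The median of this list was 0.69, 1.38 and 0.77 in pDCs, cDC1s and cDC2s, beside 0.07, 0.59 and 0.01 in the histone genes. Of 20 genes of G2 and mitosis, 7 of 19 tested were called higher in pDCs, led by Top2a, Mki67, Ccnb2 and Nusap1 (3.13, 2.70, 2.67 and 2.66), and 6 of 20 in cDC1s, led by Mki67, Top2a, Kif11 and Bub1b (1.44, 1.34, 1.205 and 1.15). In cDC2s none of the 20 was called by limma, with 19 above 0.

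Of the 20 genes of histone mRNA transcription, 3' end processing and decay, 19 were tested. The shares of all genes called higher, for comparison, were 0.814% in pDCs, 15.8% in cDC1s and 3.59% in cDC2s. The gene of cyclin E1, Ccne1, was called higher in all 3 subsets (log2 fold changes 1.74, 1.45 and 1.01), and was the only one in pDCs. In cDC2s Ccne2 (0.98) was called as well, and in cDC1s 12 were called higher and none lower, led by Ccne1, Ccne2 (1.43), Lsm11 (1.01), a part of the U7 snRNP that cuts histone pre-mRNA, and Cdk2 (0.96). After median-of-ratios scaling 7 of them were called in cDC1s, and in FPKM and after quantile normalization Ccne1 was not called in pDCs. Slbp was at 53.2 and 59.3 TPM in WT and 107.5 and 104 TPM in cKO cDC1s, and rose by 0.90 on the log2 scale (SE 0.15, limma adjusted p 0.00159). In cDC2s Slbp was at 75.7, 77.5 and 75.7 TPM against 94.3, 139 and 106 TPM (0.54, adjusted p 0.0149), and in pDCs at 49.4, 51.4 and 55.9 TPM against 61.8, 68.2 and 56.2 TPM (0.24, adjusted p 0.169), neither called. Casp8ap2, a partner of NPAT in histone locus bodies, was called higher in cDC1s (0.68, limma adjusted p 0.00305) and not in cDC2s (0.09) or pDCs (-0.07). Npat was not called in any subset, with fold changes of -0.02 in pDCs, 0.40 in cDC1s and -0.06 in cDC2s.

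Chaperones that carry histones to DNA gave 2 of 22 called higher in pDCs, 14 in cDC1s and 6 in cDC2s, and none lower. The shares over all genes were again 0.814%, 15.8% and 3.59%. In pDCs these were Asf1b, at 2.75, 2.50 and 2.82 TPM in WT and 19.6, 16.9 and 8.54 TPM in cKO libraries, and Mcm2 (log2 fold change 0.98). In cDC1s Mcm2, Chaf1a, Tonsl and Mms22l led (1.70, 1.48, 1.42 and 1.28), and 10 of 22 were called after median-of-ratios scaling. Mcm2, Chaf1a, Chaf1b and Asf1b led in cDC2s (1.16, 1.01, 0.96 and 0.68). Chaf1a, the large subunit of the chromatin assembly factor CAF-1, was at 16.8 and 19.5 TPM in WT and 57.0 and 48.1 TPM in cKO cDC1s.

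A list of 13 other histone genes held mainly histone variants. Among them H3f3a and H2az1 are polyadenylated and not tied to S phase. The list also held Cenpa, the centromeric H3 made in G2, and H2aw and H2bu2. H2aw and H2bu2 had been named in the Hist3h cluster before and were kept here because their current symbols do not meet the rule. This list gave no call in pDCs by limma (0 of 12 tested, with 10 above 0, against 38.5% of all genes). Of 13 tested in cDCs, H2aw was called lower in cDC1s (log2 fold change -1.16, SE 0.16, limma adjusted p 0.000577) and H2bu2 (-1.33, SE 0.17, adjusted p 0.000836) and H2aw (-0.71, SE 0.13, adjusted p 0.00613) in cDC2s, and none higher. Over all genes 6.56% were called lower in cDC1s and 3.56% in cDC2s, and 15.8% and 3.59% higher. All genotype calls of this list were in H2aw and H2bu2, and none of the variants tested was called. In pDCs both genes were instead higher in every cKO library. H2bu2 was at 15.2, 19.3 and 16.3 TPM in WT and 26.1, 27.3 and 31.5 TPM in cKO pDCs (log2 fold change 0.71, limma adjusted p 0.0149). H2aw was at 92.2, 105.2 and 85.3 TPM against 163.4, 118.2 and 121.9 TPM (0.50, adjusted p 0.0824). H2ax (0.99, limma adjusted p 0.0149), H1f10 (1.18, 0.0148, at most 0.35 TPM in WT) and H2az1 (0.48, 0.0332) were also higher without overlap in pDCs. So were H2az2, H3f3a and Macroh2a1 (0.14, 0.19 and 0.19), whereas H1f0, H2aj, H3f3b and Cenpa overlapped. Among all genes tested in pDCs, 10.8% had every cKO library above every WT library. Between WT cDC1s and WT cDC2s 6 of 13 were lower, against 20.8% of all genes. They were led by H2bu2, Macroh2a2, H3f3a and H1f0 (-1.63, -0.90, -0.88 and -0.70). Of the other lists, WT cDC1s were below WT cDC2s in Cdk2, Casp8ap2 and Ncbp1 (-0.66, -0.59 and -0.55), in the chaperone Hat1 (-0.67), in E2f2, Gins3 and Pola1 (-2.04, -1.24 and -1.09) and in Nusap1, Kif11, Mki67 and Tpx2 (-1.16, -1.002, -0.89 and -0.78), and above them in Gins2 (0.57). After median-of-ratios scaling the calls between the WT subsets were 3 lower in the list of other histone genes, 2 higher and none lower in the processing list, 3 higher and none lower among chaperones, and none among genes of G2 and mitosis by limma, so the directions for processing genes and chaperones depended on the scaling. The genotype effect differed between the cDC subsets in 1 gene of these lists, E2f2 (1.05, limma adjusted p 0.00583).

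**Figure D4:**
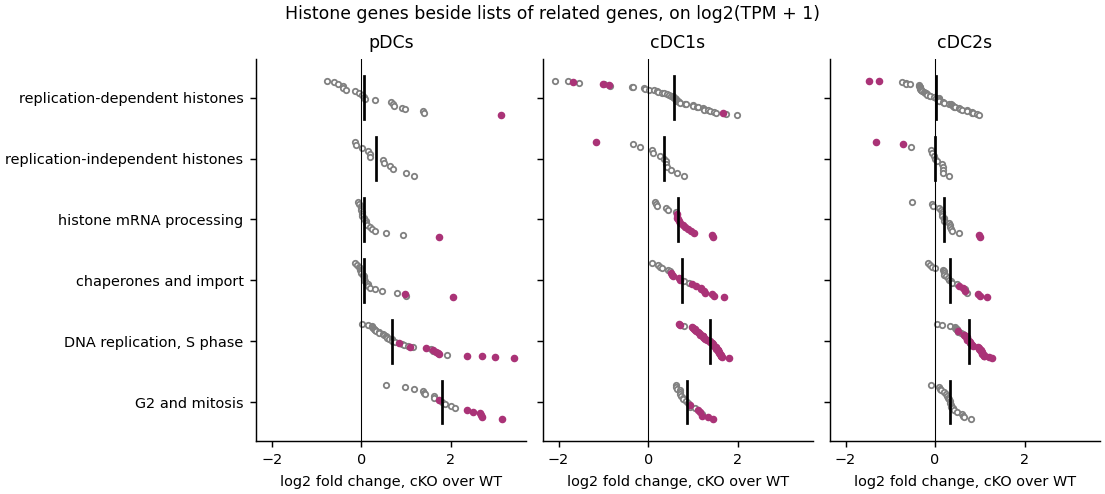
Fitted log2 fold change of cKO over WT on the log2(TPM + 1) scale (horizontal axis) of tested genes in 6 lists (vertical axis) in pDCs, cDC1s and cDC2s. Filled points are called genes, open points are not called, and vertical bars are list medians. Called genes of DNA replication lie above 0 in all 3 panels, whereas the replication-dependent histone genes spread to both sides of 0.

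Summed levels of markers of other cells also differed between the genotypes. Most sums were carried by 1 or 2 genes, and several other genes of the same lists did not follow. In pDCs the summed level of 10 listed T cell markers (6 with a mean of at least 1 TPM) was 1487 to 1936 TPM in WT and 1037 to 1206 TPM in cKO libraries. This sum was mostly Cd4 (939.62 to 1116 TPM against 686 to 839 TPM) and Cd8b1 (496 to 793 TPM against 298 to 365 TPM), while Lat was higher in cKO pDCs (3.98 to 7 TPM against 15.4 to 16.8 TPM) and Cd3e was at most 0.24 TPM. The 14 monocyte and macrophage markers (13 of 14) were at 5019 to 5686 TPM against 5852 to 6044 TPM in pDCs, of which Ly6c2 made up 4771 to 5456 TPM and 5574 to 5702 TPM. The 10 neutrophil markers (6 of 10) were at 12.8 to 34.3 TPM against 34.8 to 143 TPM, led by Ngp and S100a9.

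In cDC1s 10 B cell markers (7 of 10) summed to 164 to 196 TPM in WT and 67.4 to 71.7 TPM in cKO libraries, mostly Fcrla (170 and 129 TPM against 47.6 and 49.3 TPM), while Cd79a was at most 4.75 TPM. The T cell markers (4 of 10) were at 30.3 to 36.7 TPM against 17.2 to 18.2 TPM, led by Cd4 and Cd8b1. The 8 NK cell markers (3 of 8) were at 48.9 to 62.3 TPM against 102 to 114 TPM, nearly all of it Klrk1 (45.2 and 60.01 TPM against 99.1 and 112 TPM), and Ncr1 was at most 0.36 TPM. The 10 progenitor markers (4 of 10) were at 166 to 175 TPM against 142 to 143 TPM through Kit, while Cd34 went the other way (2.18 and 3.43 TPM against 11.03 and 10.5 TPM). The neutrophil markers (7 of 10) were at 4.92 to 21.4 TPM against 26.6 to 46.9 TPM. The cDC1 markers were at 1909.82 to 2045 TPM in WT and 1117 to 1153 TPM in cKO cDC1s, with Clec9a, Itgae and Cadm1 called lower and Batf3 and Tlr3 not called (log2 fold changes 0.06 and 0.23).

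In cDC2s the monocyte and macrophage markers (14 of 14) were at 1411 to 1975 TPM in WT and 2755 to 3605 TPM in cKO libraries. Most of this was Lyz2 (617 to 1048 TPM against 1945 to 2449 TPM), and Csf1r, Ccr2 and Fcgr1 were called higher as well. Adgre1 was lower in every cKO library (179.55 to 187 TPM against 147 to 152 TPM, not called), and C1qa, C1qb, C1qc and Vcam1 overlapped. The T cell markers (4 of 10) were at 292 to 402 TPM against 135 to 165 TPM through Cd4, the NK cell markers (3 of 8) at 25.5 to 44.0 TPM against 60.04 to 68.6 TPM through Klrk1, and the progenitor markers (4 of 10) at 203 to 273 TPM against 116 to 148 TPM through Kit. No marker of these lists was at 0 in all libraries of a table, and the part of such cells in the histone values was not tested.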

How the data were processed

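The data were 16 RNA-seq libraries from sorted splenic DCs. Total RNA had been treated with DNase I and RNase H before library construction and read as 50-base single ends. The paper speaks of an mRNA library without saying how mRNA was selected. Whether members without a poly(A) tail were captured as fully as those with one was not tested. The authors cleaned reads with SOAPnuke, aligned them with Bowtie2 2.2.5 and estimated gene levels with RSEM 1.2.12, and HISAT2 2.0.4 is also named in the submitters' processing notes, with mouse build mm10. TPM values were deposited by the authors for pDCs and for cDCs in separate tables, together with FPKM values for the same libraries. No column was left unmapped. The values are not counts, so limma 3.58.1 (R 4.3.3) was used, with lmFit and eBayes with trend on log2(TPM + 1), for genes with a mean of at least 1 TPM, two-sided. The pDC fit held 6 libraries and the cDC fit 10 libraries in 4 groups with a shared spread. Replicates are pools of animals, larger for cKO than for WT, and p-values measure the spread between them. Errors are limma standard errors.

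Members and lists were chosen with earlier results of these data known. Named were the most abundant member of each class in each table, every member called in a contrast, the 4 called genes with the largest fold change of each list, Slbp, Npat, Casp8ap2 and Trim33; H2ac23, H2ac19 and genes named to show a contrast were added after their values were seen. Sequences came from RefSeq and GENCODE M21. Depth was estimated from steps of low FPKM values of genes with 1 transcript length, scanned from 12000000 to 30000000 reads; at the estimate 54.4% to 69.5% of 115 to 165 values per library were within 0.15 reads of a whole number, against a median of 26.4% to 35.8% over the scan. In pDCs libraries with the same replicate number deviated together (r of 0.31, 0.39 and 0.21 over genes), so the numbers were taken to pair them. The fits given do not use these pairs unless the replicate block is named. In pDCs the block changed no member call, but over all genes 260 were called higher and 75 lower, against 92 and 27 without it. An unadjusted limma p under 0.05 was found in 10 members with the block and in 5 without it. The fits and the depth estimate were tested on simulated data. Plots were made with Python 3.11.15, pandas 2.3.3, numpy 2.4.6 and matplotlib 3.10.9.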

Additional observations from a re-analysis of the deposited data

Results flagged for a closer look

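H2bc21 moved in opposite directions in 2 subsets. In pDCs it was lower in every cKO library than in every WT library (log2 fold change -0.42), and in cDC1s it was higher in every cKO library, at 2.24 and 2.33 TPM against 1.80 and 1.88 TPM (log2 fold change 0.21). Neither change passed the threshold of limma (adjusted p 0.154 and 0.460), and the difference between the subsets was not tested, because their tables were scaled separately. Groups of 2 or 3 libraries were too small to look for single libraries far from the others.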

How the results depend on the processing

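Counts of called members were small and changed with the settings. Without the filter on low genes there were 0 calls in pDCs, 2 in cDC1s, 1 in cDC2s and 3 between WT cDC1s and WT cDC2s. FPKM gave 2 in cDC1s and 1 in cDC2s, median-of-ratios scaling 1 in cDC2s, eBayes without trend 0 in pDCs, and a pseudocount of 0.1 gave 1 (H2bc15) in the difference between the cDC subsets. Leaving out 1 library gave 0 to 1 calls in pDCs, 1 to 7 in cDC1s, 0 to 2 in cDC2s, 0 to 1 in the difference between the cDC subsets and 3 to 12 between the WT subsets. In cDC1s the count was 7 without WT cDC2 replicate 1 or 2 and 1 without WT cDC1 replicate 1 or either cKO cDC1 replicate. It was 0 in cDC2s without cKO cDC2 replicate 1. Between the WT subsets it was 12 without WT cDC2 replicate 1 and 3 without WT cDC1 replicate 1. The call in the difference between the cDC subsets without WT cDC2 replicate 1 was H4c2. No called member changed direction in any setting.

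In cDCs the replicate numbers did not pair the libraries. Same-number deviations correlated at -0.23 in cDC1s and at -0.25, 0.25 and -0.16 in cDC2s. With the replicate number as a block, there were 6 member calls in cDC1s, 0 in cDC2s, 0 in the difference and 5 between the WT subsets. In pDCs there was 1, where the block changed no member call. A crossed replicate block in cDC1s, added after the data were seen, gave 7 calls (5 higher, 2 lower).

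The log2 ratio of the summed members was 0.18 to 0.23 in pDCs, 0.41 to 0.58 in cDC1s and -0.10 to 0.38 in cDC2s when 1 library was left out, with the lowest in cDC2s without WT replicate 1 and the highest without WT replicate 2. Median-of-ratios scaling gave 0.32 in cDC1s. Without the most abundant member of each class the ratios were 0.96 in pDCs, 0.043 in cDC1s and -0.024 in cDC2s. Without H2ac24, left out after its values were seen, they were -0.043, -0.095 and -0.13. The other planned settings moved these sums by less than the spread between replicates.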

Other observations

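A split by transcript length, drawn after the values were seen, gave sums that moved in opposite directions in cDC1s. Members with an annotated transcript of at least 1000 bases, led by H1f2 and H2bc4, summed to 111 and 139 TPM in WT and 57.5 and 69.5 TPM in cKO cDC1s, and to 130.13 to 199 TPM in WT and 73.3 to 89.1 TPM in cKO cDC2s. Neither pair of groups overlapped, with log2 ratios of -0.97 and -0.95. In pDCs the same members were at 55.6 to 66.1 TPM in WT and 43.3 to 62.1 TPM in cKO libraries, which overlap. Members with shorter transcripts, led by H2ac24, summed to 411 and 447 TPM in WT and 670.17 and 759 TPM in cKO cDC1s and to 148 to 161 TPM in WT and 189 to 204 TPM in cKO pDCs, without overlap, and overlapped in cDC2s. In cDC1s the sums follow a few abundant genes, since 8 of 13 tested members with long transcripts still had fold changes above 0. Of those with shorter transcripts 27 of 34 were above 0 there, as were 64.7% of all genes. In cDC2s the counts were 3 of 13 and 21 of 34, against 46.5% of all genes. In pDCs they were 1 of 7 and 11 of 13, against 38.5%.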
